A study of Sus scrofa with 12 samples.

Results

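Porcine oocytes of the class labelled LG were compared after in vitro maturation in medium with or without GDNF (glial cell line-derived neurotrophic factor). The comparison takes 6 of the 12 arrays of the series, 3 of LG oocytes matured with GDNF and 3 of LG control oocytes matured without it, chosen by their source labels. All groups, the controls included, came from prepubertal crossbred gilts and were matured for 44 h in TCM199 with follicular fluid (10%), LH, FSH and EGF before the cumulus cells were removed with hyaluronidase and a pipette. The remaining 6 arrays hold oocytes of a second class, SM, with GDNF (3 arrays) and without it (3 arrays). The labels do not spell out LG and SM and give no dose of GDNF. Each array set a pool of oocytes against a common reference made of oocytes from all groups, and the pool is the unit of replication. The labels give 2 oocytes per pool whereas the design text speaks of 3 replicates per array, so the number of oocytes behind a value is uncertain.

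GDNF is a secreted ligand that binds the co-receptor GFRA1, and the complex activates the receptor tyrosine kinase RET. NCAM1 can serve as an alternative receptor. Activated RET recruits adaptors such as SHC1, FRS2 and GRB2, which feed the RAS-MAP kinase and PI3 kinase-AKT cascades. In the ovary GDNF is made by cells of the follicle, and it is studied as a factor that helps the oocyte complete meiosis and acquire developmental competence. A fully grown oocyte transcribes little, so during maturation its mRNA pool changes mostly through polyadenylation, translation and decay of stored maternal messages. An array cannot tell more copies of a message from a longer poly(A) tail where, as here, the RNA was amplified from an oligo(dT) primer.

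The values are the authors' deposited log ratios, taken as base 2, averaged over the features of a gene for 11913 genes. The sample carried Cy5 on slide 1 (LG GDNF 1 and LG control 1) and Cy3 on slides 2 (LG GDNF 2 and LG control 3) and 3 (LG GDNF 3 and LG control 2), and whether the ratios were turned to sample over reference is not known. A difference is therefore GDNF minus control in the deposited ratio and carries no direction of expression. Beside the fit on the ratios as deposited stand the fit on slides 2 and 3 alone, which share a dye orientation, and the opposite dye reading, in which slide 1 is turned and slides 2 and 3 stay as deposited. LG control 2 and LG GDNF 3, both on slide 3, stood apart. LG control 2 had 489 features above a ratio of 4, and the median ratio of 10 oocyte markers was -0.267, 0.165 and 0.806 on LG GDNF 1 to 3, against -0.455, 1.12 and 0.194 on LG control 1 to 3. For 10 cumulus and granulosa markers these medians were 0.101, 0.193 and -0.439 in LG GDNF, against -0.017, -0.068 and 0.371 in LG control. Since the reference is itself made of oocytes, a ratio near 0 neither shows nor denies that the pools are oocytes. Across features LG GDNF 2 correlated at 0.8445 with SM control 2 and 0.764 with SM GDNF 2. With LG GDNF 1 and 3 it correlated at 0.3899 and 0.3352. Over the 12 arrays the median correlation was 0.39 for pairs of the same group and 0.3926 for pairs on different slides.

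No gene passed the test for GDNF against control in LG. Limma called 0 of 11913 genes (0.0%) at an adjusted p under 0.05, and the smallest adjusted p was 0.387. At an unadjusted p under 0.05 there were 902 genes (7.57%), of which 535 (4.49%) had a higher ratio with GDNF and 367 (3.08%) a lower one. The count was 611 (5.13%) on slides 2 and 3 alone and 571 (4.79%) in the opposite dye reading. Without LG GDNF 2 it was 476. The 6 LG arrays did not overlap between the groups in 1262 genes (10.6%). The median standard error of a difference was 0.196 on the log2 scale.

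The within-slide differences were only loosely alike. Across the 11913 genes, which are not independent replicates, the differences of slides 1 and 2 had a Pearson correlation of 0.275, those of slides 2 and 3 of 0.172 and those of slides 1 and 3 of -0.0065. In SM oocytes they were larger in size and of both signs, -0.3505 for slides 1 and 2, -0.4577 for slides 2 and 3 and 0.3545 for slides 1 and 3. These are as deposited. In the opposite reading the correlations with slide 1 change sign, and only that of slides 2 and 3 stays. Slide 3 had the widest differences, with 1089 genes at a size of 1 or more, against 519 on slide 1 and 542 on slide 2. All 3 slides put 3589 genes (30.1%) on 1 side as deposited, and 2776 (23.3%) in the opposite reading. On slides 2 and 3, which share a dye orientation, 6365 genes (53.4%) lay on 1 side.

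Among the 25 named genes of smallest p as deposited, 22 had a higher ratio with GDNF and 3, GRB2, ENC1 and UPF3B, a lower one. The adaptor GRB2, which carries signals from receptor tyrosine kinases such as RET to RAS, had deposited ratios of -0.317, -0.298 and -0.526 on LG GDNF 1 to 3, against 0.655, 0.728 and 1.25 on LG control 1 to 3. Its difference was -1.26 (standard error 0.168, limma adjusted p = 0.387), and -0.61 in the opposite reading, with an unadjusted p of 0.18. The ratios of ENC1, an actin-binding kelch-repeat protein, were -0.186, 0.0869 and -0.171 in LG GDNF, against 1.04, 1.08 and 0.729 in LG control. In both genes every control array lay above every GDNF array, and each slide showed the same side. UPF3B, which marks faulty mRNAs for nonsense-mediated decay, had -0.010, -0.200 and 0.0476 in LG GDNF, against 0.834, 0.928 and 0.399 in LG control.

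Among the 22 genes with a higher ratio, the ubiquitin ligase RNF138 had ratios of 0.304, 0.778 and 0.440 on LG GDNF 1 to 3, against -0.506, -0.783 and -0.349 on LG control 1 to 3. UBE2W, a ubiquitin-conjugating enzyme that modifies N-termini, had 0.708, 1.01 and 0.302 in LG GDNF, against -0.312, -0.141 and 0.0585 in LG control. The groups did not overlap in either gene, and the differences were 1.05 and 0.81. TMED7, a cargo receptor of vesicles between endoplasmic reticulum and Golgi, had 0.465, 0.834 and 0.273 in LG GDNF, against -0.474, -0.686 and 0.303 in LG control, where LG control 3 lies above LG GDNF 3. PDIA5, a disulfide isomerase of the endoplasmic reticulum, had -0.309, 0.535 and 0.243 in LG GDNF, against -1.36, -1.44 and -0.479 in LG control. Here the groups were apart, although LG GDNF 1 and LG control 3 were close. LRRC59, a ribosome-binding protein of the endoplasmic reticulum, had the smallest difference of the 25, at 0.63. Among the proteins of mitochondria, NDUFAF4, an assembly factor of respiratory complex I, had 0.104, 0.440 and 0.199 in LG GDNF, against -0.665, -0.507 and -0.230 in LG control. CRLS1, the cardiolipin synthase, had a difference of 0.95 with groups that did not overlap.

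PIBF1, a centrosomal and ciliary protein, had ratios of 0.154, 0.927 and 0.520 in LG GDNF, against -1.03, -0.652 and -0.261 in LG control, and the within-slide differences were 1.19, 1.19 and 1.17 on slides 1 to 3. RPGR, a regulator of cilia, had differences of 0.63, 0.67 and 0.75. These were among the steadiest differences over the slides. The poly(A)-binding protein PABPC1L, needed for translation of stored messages in mouse oocytes, had -0.944, 0.511 and 0.363 in LG GDNF, against -1.36, -0.669 and -0.403 in LG control. Its groups overlapped because of LG GDNF 1, while each slide had GDNF above control. POLE2, a subunit of DNA polymerase epsilon, had a difference of 1.04 and TAF9, a subunit of TFIID and SAGA, one of 0.98. ZNF706 had the largest difference of the 25, 1.40 (standard error 0.334), with 2.47 on slide 3 and 0.97 and 0.76 on slides 1 and 2. The remaining genes, TRIML2, ART3, CCDC61, AGBL5, FAM169A, ELP4, SNX7, APIP and TMEM27, had differences between 0.79 and 1.17.

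**Figure D1:**
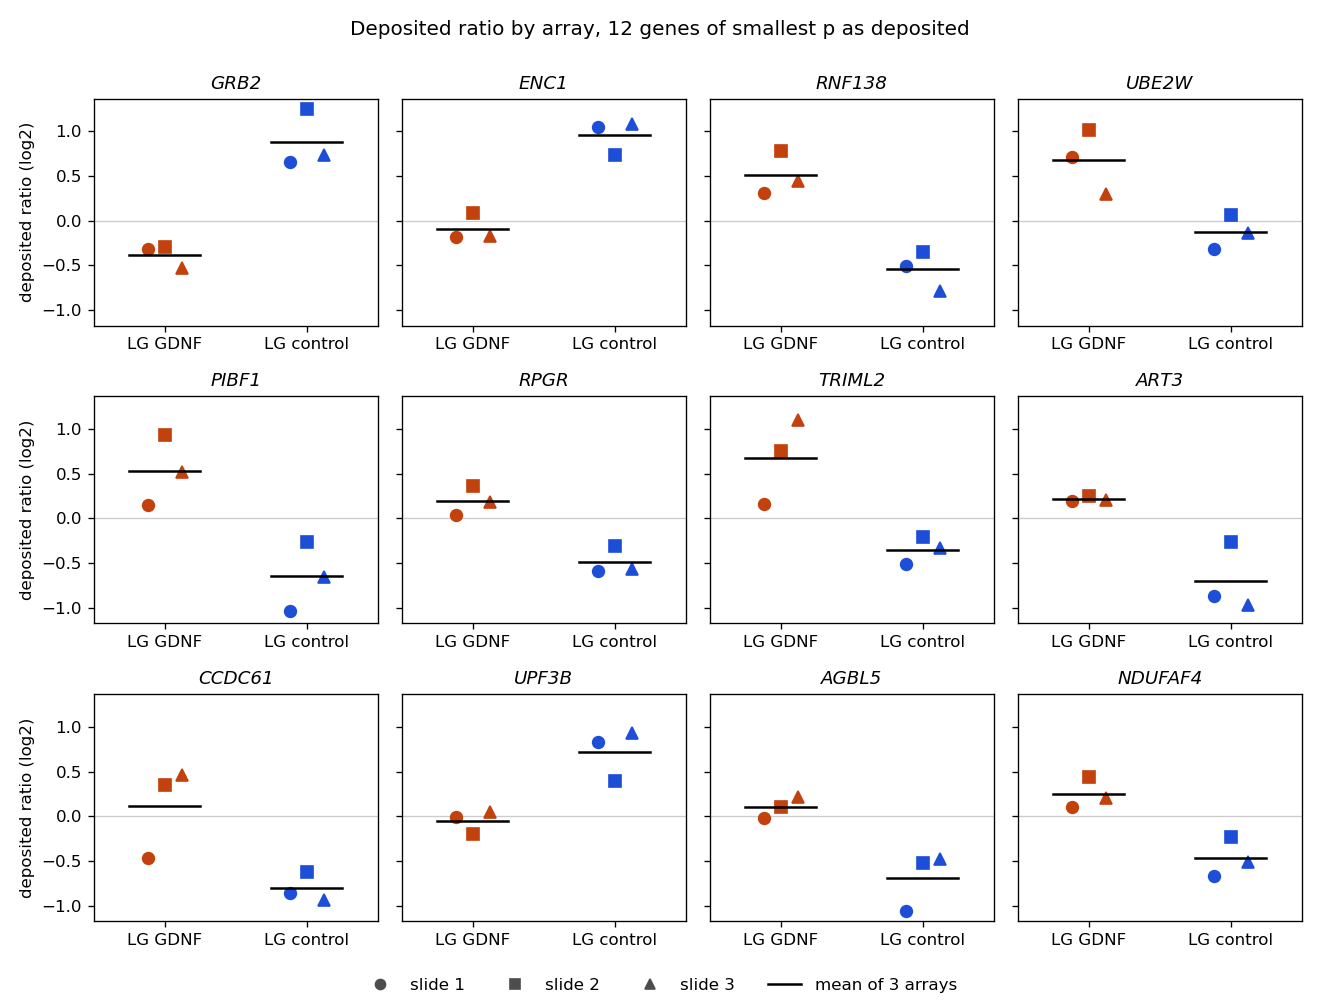
Deposited ratio (log2) of 12 genes with the smallest p as deposited, with LG GDNF on the left and LG control on the right of each panel. Points are single arrays with the marker giving the slide, and black lines are means of 3 arrays. In GRB2, ENC1 and UPF3B the GDNF arrays lie below the control arrays, in the other 9 genes they lie higher.

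The 25 genes were chosen by p as deposited, which favours that fit. Their sizes were 0.63 to 1.40 there. All 25 had an unadjusted p under 0.05 on slides 2 and 3 alone, with sizes of 0.54 to 1.62, but these slides are part of the fit that chose them. In the opposite dye reading the sizes were 0.083 to 0.75, and 1 of the 25, CCDC61, had such a p. Without both LG arrays of slide 3 the sizes were 0.65 to 1.26. The groups did not overlap in 21 of the 25 genes, against the background of 10.6%, which again follows from the choice by p.

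Genes whose p was small in both readings do not depend on the dye orientation, but by construction they have little or no difference on slide 1. At an unadjusted p under 0.05 in both readings there were 46 genes (0.386%), and all 46 had such a p on slides 2 and 3 too. The choice favours this, since the 2 readings differ only in slide 1. Among the 12 with the smallest p of this kind, PDE8A, a phosphodiesterase that degrades cAMP, the messenger that holds oocytes in meiotic arrest, had ratios of -0.490, 0.878 and 0.552 on LG GDNF 1 to 3, against -0.498, -1.05 and -0.636 on LG control 1 to 3. The difference was 1.51 on slide 2 and 1.60 on slide 3, but 0.0079 on slide 1. EZR, ezrin, which ties the actin cortex to the plasma membrane and its microvilli, had 0.514, 0.229 and -0.472 in LG GDNF, against 0.358, 1.89 and 1.5 in LG control. Its differences on slides 2 and 3 were -1.28 and -2.37, and on slide 1 the GDNF array lay slightly above the control.

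Of the other 10 genes SAR1A, the GTPase that starts COPII vesicles, had -0.72 and -1.44 on slides 2 and 3, and BET1, a SNARE of the same route, had -0.65 and -1.43. SEC61A2, a subunit of the translocon, lay on the other side with 0.82 and 1.71, as did the lysosomal membrane protein LAMP1 with 0.90 and 2.56. PUM2, an RNA-binding repressor of maternal messages, had 0.58 and 1.20, and PABPN1L, an oocyte poly(A)-binding protein, had 0.63 and 2.37. The mitochondrial ribosomal protein MRPL52 had the largest size of the 12, with ratios of 0.760, -0.232 and -1.48 in LG GDNF, against 0.409, 1.30 and 2.70 in LG control. NOB1, a nuclease of ribosome maturation, CLK3, a splicing kinase, and SDCBP, the scaffold syntenin, had differences of 0.61, 0.61 and 0.73. Over the 12 genes the smallest adjusted p was 0.646 as deposited. Without both LG arrays of slide 3, 0 of the 12 had an unadjusted p under 0.05 in limma, and the sizes were 0.27 to 1.29.

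**Figure D2:**
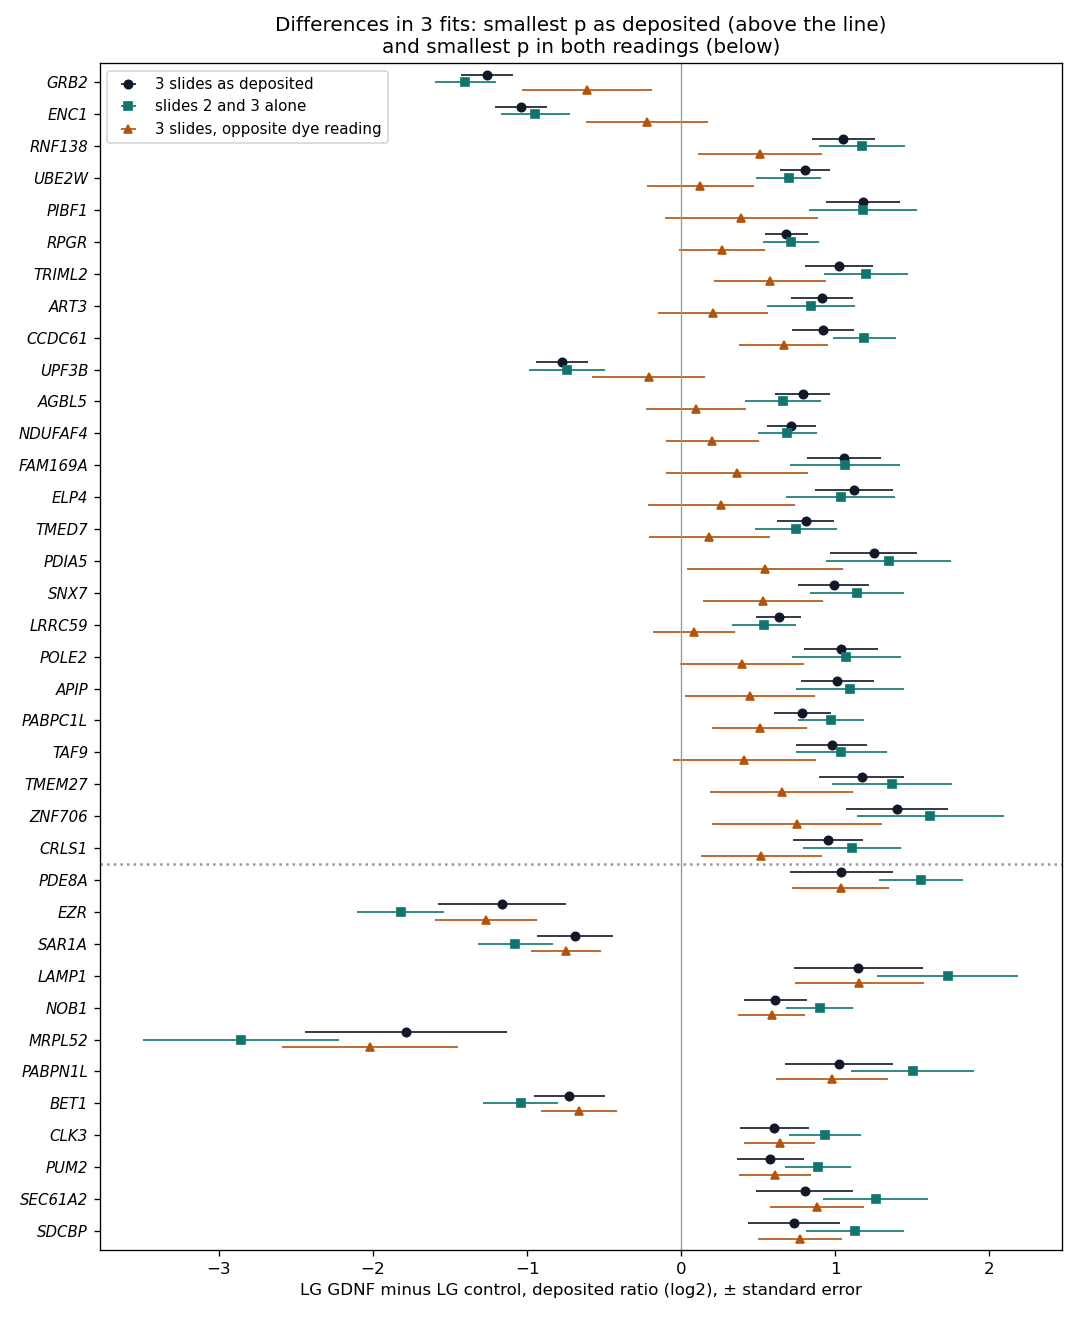
Difference of LG GDNF minus LG control in deposited ratio (log2, horizontal axis) with its standard error for 37 genes in 3 fits. The 25 genes above the dotted line were chosen by p as deposited and move towards 0 in the opposite reading. The 12 below it keep their size there, which their choice by p in both readings favours.

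Of the 12 genes of smallest p on slides 2 and 3 alone, 8 also had an unadjusted p under 0.05 in the 3-slide fit as deposited. IGFBP7 was among the 8, while ZP2 and COL1A2 were not. ZP2, a sperm-binding protein of the zona pellucida, had -0.608, -0.574 and -0.178 on LG GDNF 1 to 3, against -0.909, 1.16 and 0.721 on LG control 1 to 3. Its difference was -1.30 on slide 2 and -1.34 on slide 3, but 0.30 on slide 1. COL1A2, a chain of collagen I, showed the same layout, with -0.97 and -1.35 on slides 2 and 3 and 0.68 on slide 1, as did IGFBP7, a secreted binding protein, with -1.29 and -1.16, and 0.26 on slide 1. TCF15, a bHLH transcription factor, and SPIRE1, an actin nucleator of the oocyte, had a higher ratio with GDNF on all 3 slides. SPIRE1 had -1.27, 0.773 and 0.980 in LG GDNF, against -1.75, -1.67 and -0.565 in LG control. GLIPR1 had differences of -0.38, -1.13 and -1.90. The smallest adjusted p on these slides was 0.884, and GRB2, CCDC61, PDE8A and EZR were among the 12 genes as well.

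In the opposite reading the smallest p belonged to genes whose slide 1 lies across from slides 2 and 3. STRBP, an RNA-binding protein, had differences of 0.58, -0.76 and -0.79 on slides 1 to 3. PSMD14, the deubiquitinase of the proteasome lid, had 0.68, -1.17 and -1.81, and DRAM2, a lysosomal protein of autophagy, had 0.46, -1.15 and -1.06. On the other side were AGO2, the slicer of RNA interference, with -0.74, 0.54 and 0.57, MKNK2, a kinase of the cap-binding factor EIF4E, with -1.40, 0.36 and 1.17, and GMIP with -0.81, 0.72 and 0.53. As deposited MKNK2 averaged -0.368 ± 0.835 in LG GDNF and -0.411 ± 0.512 in LG control (SD, n = 3 each). The differences over the 3 slides as deposited were 0.043 for MKNK2, 0.12 for AGO2 and 0.15 for GMIP, while PSMD14 had -0.77 and LYRM1 -0.96. RTN4IP1, HADHA, ASNS and LYRM1 completed the 10, and the smallest adjusted p in that reading was 0.979.

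**Figure D3:**
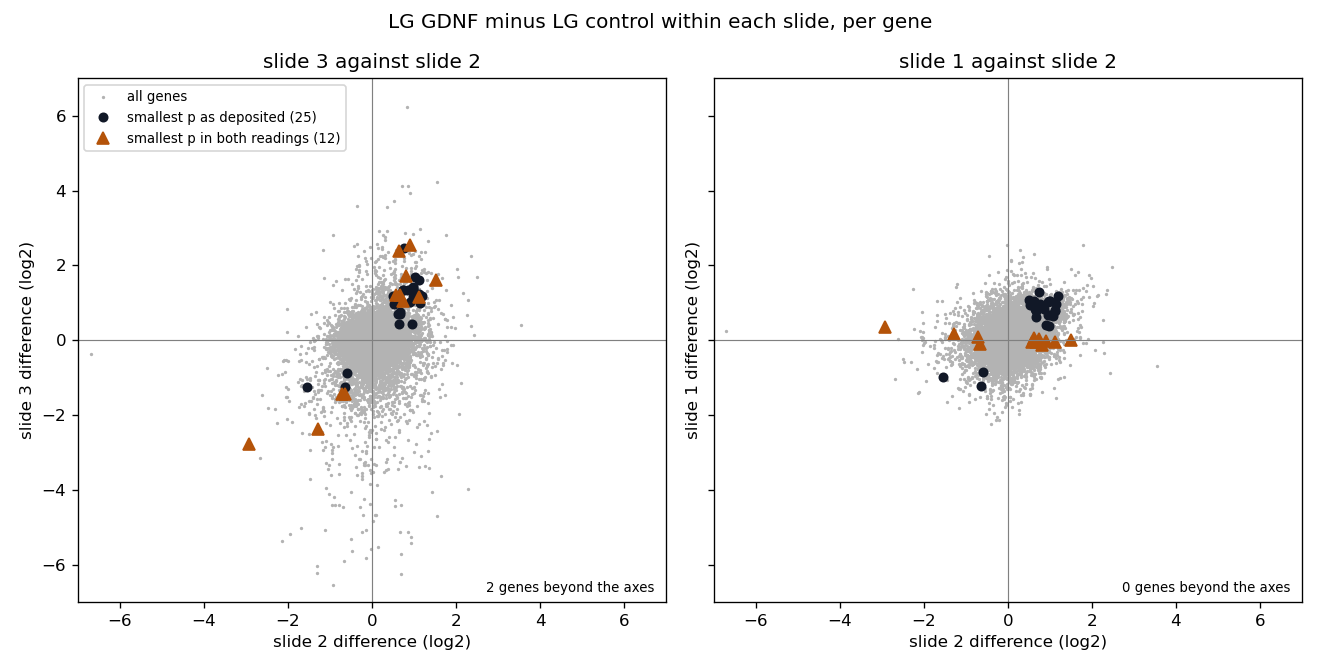
Within-slide difference of LG GDNF minus LG control (log2) of every gene, slide 3 against slide 2 on the left and slide 1 against slide 2 on the right. Grey points are all 11913 genes, and 2 lie beyond the axes on the left. The 12 genes of small p in both readings (triangles) are far from 0 on slides 2 and 3 and near 0 on slide 1, and the 25 genes of small p as deposited (circles) lie away from 0 on all 3 slides.

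The size asked of every slide gives a view that needs no p. In 22 genes (0.185%) the difference was 1 or more in size on all 3 slides and on 1 side as deposited, and in 5 genes, ACOT9, ASNS, CTNNA1, NDUFA7 and RGS5, it was so in the opposite reading. These genes are named after their values were seen. CMAS, which activates sialic acid, had differences of 1.29, 1.30 and 1.31 on slides 1 to 3, and its ratios were -0.0352, 1.05 and 0.179 in LG GDNF, against -1.33, -1.13 and -0.251 in LG control. FBXL4, a mitochondrial F-box protein, had 1.37, 1.26 and 1.24. IREB2, the iron regulatory protein that controls stored messages of iron handling, had 1.95, 2.49 and 1.68, with ratios of -0.133, 2.39 and 0.564 in LG GDNF, against -2.09, -1.11 and -0.0956 in LG control. The groups of CMAS and FBXL4 were apart and those of IREB2 overlapped at 1 array of each. The kinetochore gene NDC80 had 1.20, 2.15 and 1.27, the histone variant gene H2AFZ had 1.10, 1.41 and 1.79, and LRPPRC, which stabilises mitochondrial mRNAs, had 1.10, 1.75 and 1.33. PDIA5, PIBF1, EIF2AK4, MAD2L1, PTPRZ1 and the unnamed locus LOC100512154 were also on this side.

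On the other side the sizes of 4 genes leaned on LG control 2. CTDSPL, MED1, PPIG and UBE2Q1 had ratios of 5.68, 6.24, 6.28 and 4.37 on LG control 2, and at most 1.94 on any of the other 5 LG arrays. Their differences on slide 3 were -5.06, -6.05, -5.37 and -4.11, against sizes of 1.02 to 2.13 on slides 1 and 2. TPM4, a tropomyosin, had ratios of 0.221, -0.196 and -2.26 in LG GDNF, against 1.31, 2.91 and 1.75 in LG control. ACTB, cytoplasmic actin, had -0.161, -0.641 and -1.61 in LG GDNF, against 0.866, 1.53 and 2.03 in LG control. In TPM4 and ACTB the groups did not overlap. The orphan nuclear receptor NR2F1 had -0.267, -0.667 and -0.353 in LG GDNF, against 1.02, 1.51 and 0.510 in LG control, again without overlap. MED19, POLA2 and PPP2R2B complete the 22.

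Of 41 measured genes of GDNF receptors and RET signalling, 5 (12.2%, against 7.57% of all genes) had an unadjusted p under 0.05 as deposited, 2 with a higher and 3 with a lower ratio, and 0 were called. With slides 2 and 3 alone the share was 7.32% (1 higher, 2 lower), against 5.13% of all genes, and with slide 1 turned it was 12.2% (1 higher, 4 lower), against 4.79%. The ligand gene GDNF had ratios of -0.390, -0.522 and -0.654 in LG GDNF, against -0.184, -0.205 and -0.452 in LG control. GFRA1, the co-receptor, had -0.204, -0.410 and -0.0444 in LG GDNF, against -0.307, 0.156 and 0.192 in LG control. The receptor gene RET had 0.386, -0.0742 and -0.456 in LG GDNF, against -0.293, 0.139 and 0.015 in LG control. All 3 genes overlapped between the groups, and RET had a difference of 0.68 on slide 1, -0.09 on slide 2 and -0.59 on slide 3. NCAM1 had 0.0389, 0.870 and -2.15 in LG GDNF, against 0.400, -0.304 and 2.26 in LG control.

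Downstream, the adaptors did not lie on 1 side as deposited. SHC1, which sits between RET and GRB2, had a higher ratio with GDNF, 0.443, 0.249 and 0.0872 in LG GDNF, against -0.786, 0.106 and -0.776 in LG control, while GRB2 had a lower one. The MAP kinase kinase MAP2K1 had -0.207, 0.462 and 0.220 in LG GDNF, against -0.469, -0.436 and -0.134 in LG control, with GDNF above control on each slide. The ribosomal S6 kinase RPS6KA1, a target of the MAP kinases, had -0.473, -0.437 and -0.0835 in LG GDNF, against 0.195, -0.0545 and 0.289 in LG control. Its groups were apart, but in the opposite reading its size was 0.027. In that reading SHC1 had a difference of -0.0745 and so lay on the side of GRB2, which had -0.61. The median difference of the 41 genes was -0.117 as deposited, -0.085 with slides 2 and 3 alone and -0.074 with slide 1 turned, against -0.020, -0.027 and -0.017 over all genes. Without LG control 2 the median of the list was -0.030.

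Of 52 measured genes of meiosis and M phase 36 had a higher ratio with GDNF as deposited, as had 5538 of all 11913 genes. At an unadjusted p under 0.05 were 9 of the 36, which is 17.3% of the members, against 7.57% of all genes on either side and 4.49% on the higher side, and 0 members had such a p on the lower side. The 9 were MAD2L1, FBXO43, CCNE1, RAD21, CKS1B, CKS2, ANAPC1, ANAPC5 and ANAPC10. MAD2L1, which delays anaphase until chromosomes are attached, had -0.429, 2.03 and 1.09 in LG GDNF, against -1.77, -1.16 and -0.332 in LG control. FBXO43, EMI2, which keeps the egg in metaphase II by blocking the anaphase-promoting complex, had -0.194, 1.74 and 1.03 in LG GDNF, against -0.869, -0.746 and 0.179 in LG control. In both genes LG GDNF 2 was the highest of the 6 arrays and the groups overlapped. The 3 subunits of that complex, ANAPC1, ANAPC5 and ANAPC10, had smaller differences of 0.36, 0.53 and 0.56. CCNE1 had 0.22 on slide 1 and 2.10 on slide 3, RAD21, a cohesin, had 0.77, 1.33 and 0.53, and the CDK-binding proteins CKS1B and CKS2 had differences of 0.79 and 0.82. The share of members at an unadjusted p under 0.05 was 13.5% with slides 2 and 3 alone (6 higher, 1 lower), against 5.13% of all genes. With slide 1 turned it was 5.77% (2 higher, 1 lower), near the 4.79% of all genes. The median difference was 0.135 as deposited, 0.130 and 0.067.

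Oocyte and maternal-effect genes were divided. Of 32 measured members 17 had a higher and 15 a lower ratio, with 4 and 1 at an unadjusted p under 0.05 (15.6%, against 7.57% of all genes). BTG4, an adaptor that brings the deadenylase to maternal messages, had -0.861, 1.17 and 0.237 in LG GDNF, against -1.64, -1.38 and -0.155 in LG control, and differences of 0.78, 1.32 and 1.61 on slides 1 to 3. KPNA7, an importin of oocytes, had a difference of 0.68, and FBXO43 and PABPC1L are the other 2 of the higher side. ZP4 of the zona pellucida had -0.559, -0.470 and -0.496 in LG GDNF, against -0.524, 0.515 and 0.0541 in LG control, so that LG control 1 lay with the GDNF arrays. All 5 genes overlapped between the groups. In the opposite reading 12.5% of the members had such a p, against 4.79% of all genes, and with slides 2 and 3 alone 21.9%, against 5.13%.

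The actin cytoskeleton and cortex had the highest share of the 29 lists as deposited. There 15 of 62 members (24.2%, against 7.57% of all genes) had an unadjusted p under 0.05, 10 lower and 5 higher. With slides 2 and 3 alone the share was 12.9%, against 5.13% of all genes. With slide 1 turned it was 4.84%, close to the 4.79% of all genes there. Lower with GDNF were TPM4, ACTB, MYL6, EZR, ENC1, RDX, ACTN4, ACTN1, CFL1 and CAP1, and higher were SPIRE1, ROCK1, TMSB4X, TPM1 and DAAM1. The myosin light chain MYL6 had 0.268, 0.510 and -1.32 in LG GDNF, against 0.862, 0.381 and 2.19 in LG control. The crosslinker ACTN1 had 0.0942, 0.160 and -0.553 in LG GDNF, against 0.444, 0.587 and 0.753 in LG control, without overlap. The kinase ROCK1, which drives contraction of the cortex, had 0.144, 1.71 and 0.717 in LG GDNF, against -0.904, -0.0014 and 0.0649 in LG control, also without overlap. RDX, radixin, a relative of ezrin, had -0.223, -0.515 and -0.280 in LG GDNF, against 0.381, 2.00 and -0.363 in LG control. The tropomyosins TPM4 and TPM1 lay on different sides, and the severing factor CFL1 lay across from TMSB4X, which holds actin monomers. ACTN4 and CAP1 changed side in the opposite reading, to 0.27 and 0.25. Of the 62 members 37 had a lower and 25 a higher ratio, with a median difference of -0.051, which was 0.011 without LG GDNF 3.

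**Figure D4:**
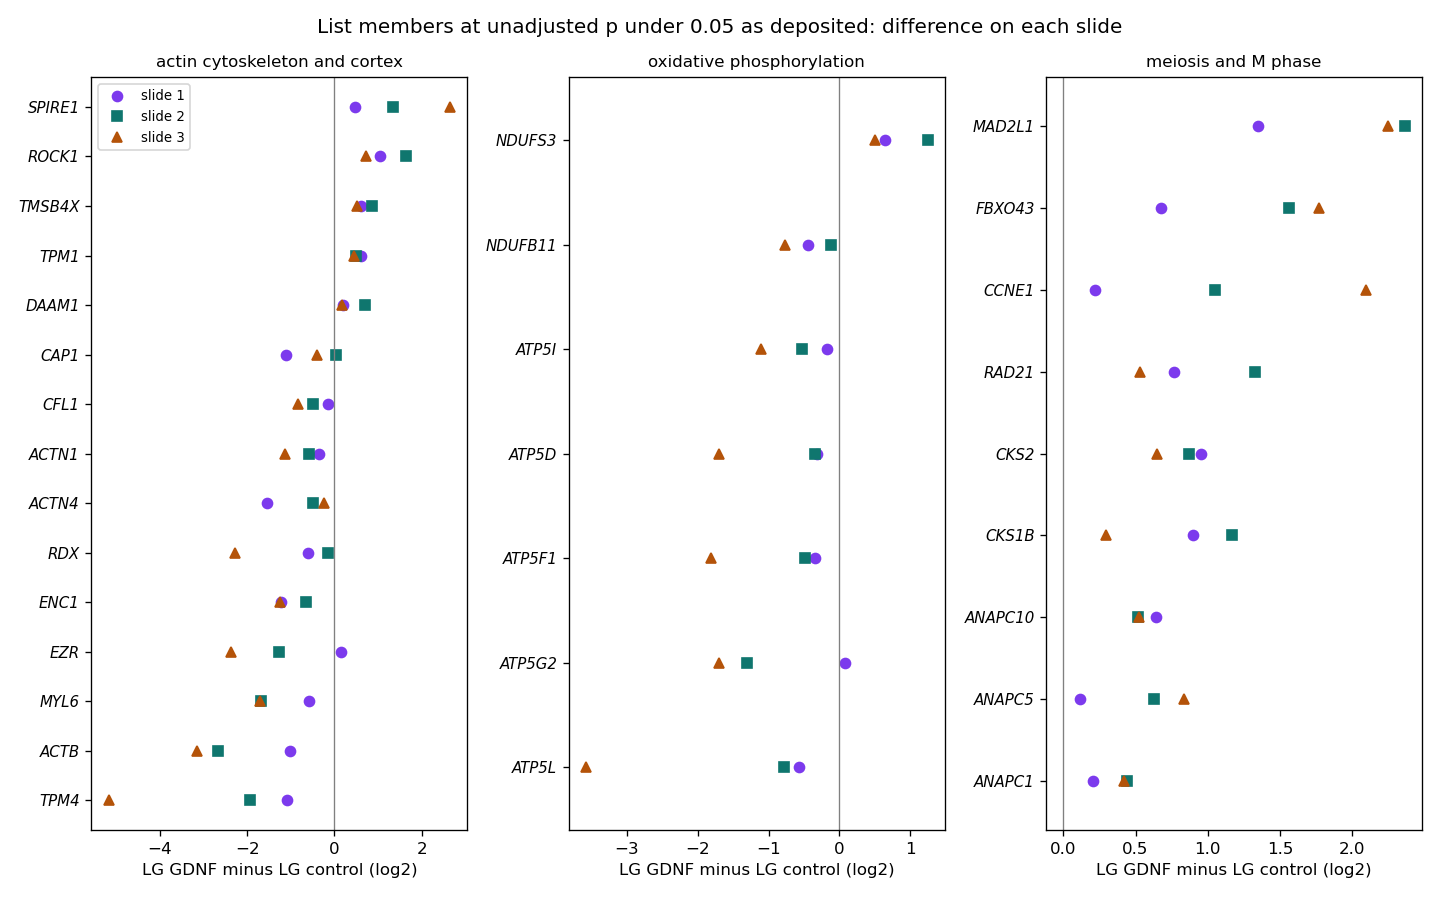
Difference of LG GDNF minus LG control on each slide (log2, horizontal axis) for members at an unadjusted p under 0.05 as deposited in 3 lists. Actin genes lie on both sides, the ATP synthase subunits lie mostly to the left with their widest values on slide 3, and the 9 meiosis genes lie to the right on all 3 slides.

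The list of translation initiation and elongation factors had its widest median on slide 3. Of 47 initiation and elongation factors 10 (21.3%, against 7.57% of all genes) had an unadjusted p under 0.05 as deposited, 4 higher and 6 lower. With slides 2 and 3 alone the share was 17.0% (4 higher, 4 lower), against 5.13% of all genes. With slide 1 turned it was 8.51% (2 higher, 2 lower), against 4.79%. The list median was 0.004, 0.094 and -0.316 on slides 1 to 3. EIF3B, a subunit of the scaffold that recruits the small ribosomal subunit, had -0.194, 0.748 and 0.307 in LG GDNF, against -0.419, -0.339 and -0.212 in LG control. EIF2AK4, GCN2, a kinase that slows initiation when amino acids are short, had 0.276, 1.24 and 0.209 in LG GDNF, against -0.747, -0.810 and -0.241 in LG control. Both were higher in every GDNF array than in any control array. The cap-binding protein EIF4E had -0.0585, 0.0001 and 0.206 in LG GDNF, against 0.676, 1.95 and 0.494 in LG control. EEF2K had a ratio of 4.13 on LG control 2 and at most 0.846 on the other LG arrays. EIF4G2 and EIF1 were the other 2 with a higher ratio, and EIF2S3, EIF4A1, EIF4G3 and EIF5A had a lower one.

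Of 52 cytosolic ribosomal protein genes 42 had a lower ratio with GDNF as deposited, as had 6370 of all 11913 genes. An unadjusted p under 0.05 was found in 5 members (9.62%, against 7.57% of all genes), 2 higher and 3 lower. The median difference was 0.089 on slide 1, -0.464 on slide 2 and -0.660 on slide 3, so that slide 1 lay across from slides 2 and 3. Over the 3 slides the median was -0.273, and without LG GDNF 3 it was 0.050. With slides 2 and 3 alone the median was -0.552 (46 members lower), and with slide 1 turned -0.469 (47 lower). RPL23A had 0.146, -0.959 and -1.13 in LG GDNF, against 0.723, 0.697 and 1.35 in LG control, with groups apart. RPS28 lay on the other side, with a difference of 0.64. Among 55 mitochondrial ribosomal proteins 10 (18.2%, against 7.57% of all genes) had such a p as deposited, 5 on each side. MRPL43 had differences of 0.92, 0.90 and 1.18 and MRPS24 of 0.61, 0.58 and 0.61 on slides 1 to 3, and MRPS22, on the lower side, had -0.59, -1.66 and -1.21. MRPL16, MRPL18 and MRPS18B were also higher and MRPL52, MRPS2, MRPS21 and MRPS5 lower. In the opposite reading 6 members of the list (10.9%, against 4.79% of all genes) had such a p, all of them on the lower side.

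Of 51 genes of oxidative phosphorylation 7 (13.7%, against 7.57% of all genes) had an unadjusted p under 0.05 as deposited. The 6 with a lower ratio include the ATP synthase subunits ATP5D, ATP5F1, ATP5G2, ATP5I and ATP5L, grouped here after their values were seen. The list measured 13 genes with an ATP5 symbol, of which 11 had a lower and 2 a higher ratio as deposited. Over all 11913 genes 6370 had a lower ratio. ATP5F1 had 0.421, -0.0731 and -0.427 in LG GDNF, against 0.759, 1.38 and 0.414 in LG control, with LG GDNF 1 just above LG control 3. ATP5L had 0.0963, -0.432 and -0.462 in LG GDNF, against 0.664, 3.11 and 0.343 in LG control, with LG control 2 far above the rest. The differences of the 5 subunits were -0.60 to -1.64 as deposited and -0.49 to -1.26 in the opposite reading, where ATP5G2 was the only one of them with such a p. NDUFB11 of complex I was the sixth gene with a lower ratio, and NDUFS3, of the same complex, had a higher one, with a difference of 0.79. The list median was 0.259, -0.028 and -0.552 on slides 1 to 3. It was -0.064 over the 3 slides, 0.151 without LG GDNF 3 and 0.0042 without LG control 3. With slides 2 and 3 alone it was -0.254, and with slide 1 turned -0.232. In the latter fit 41 of the 51 members had a lower ratio, as had 6353 of all 11913 genes. The share at an unadjusted p under 0.05 was 11.8% with slides 2 and 3 alone, against 5.13% of all genes. With slide 1 turned it was 5.88%, against 4.79%.

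**Figure D5:**
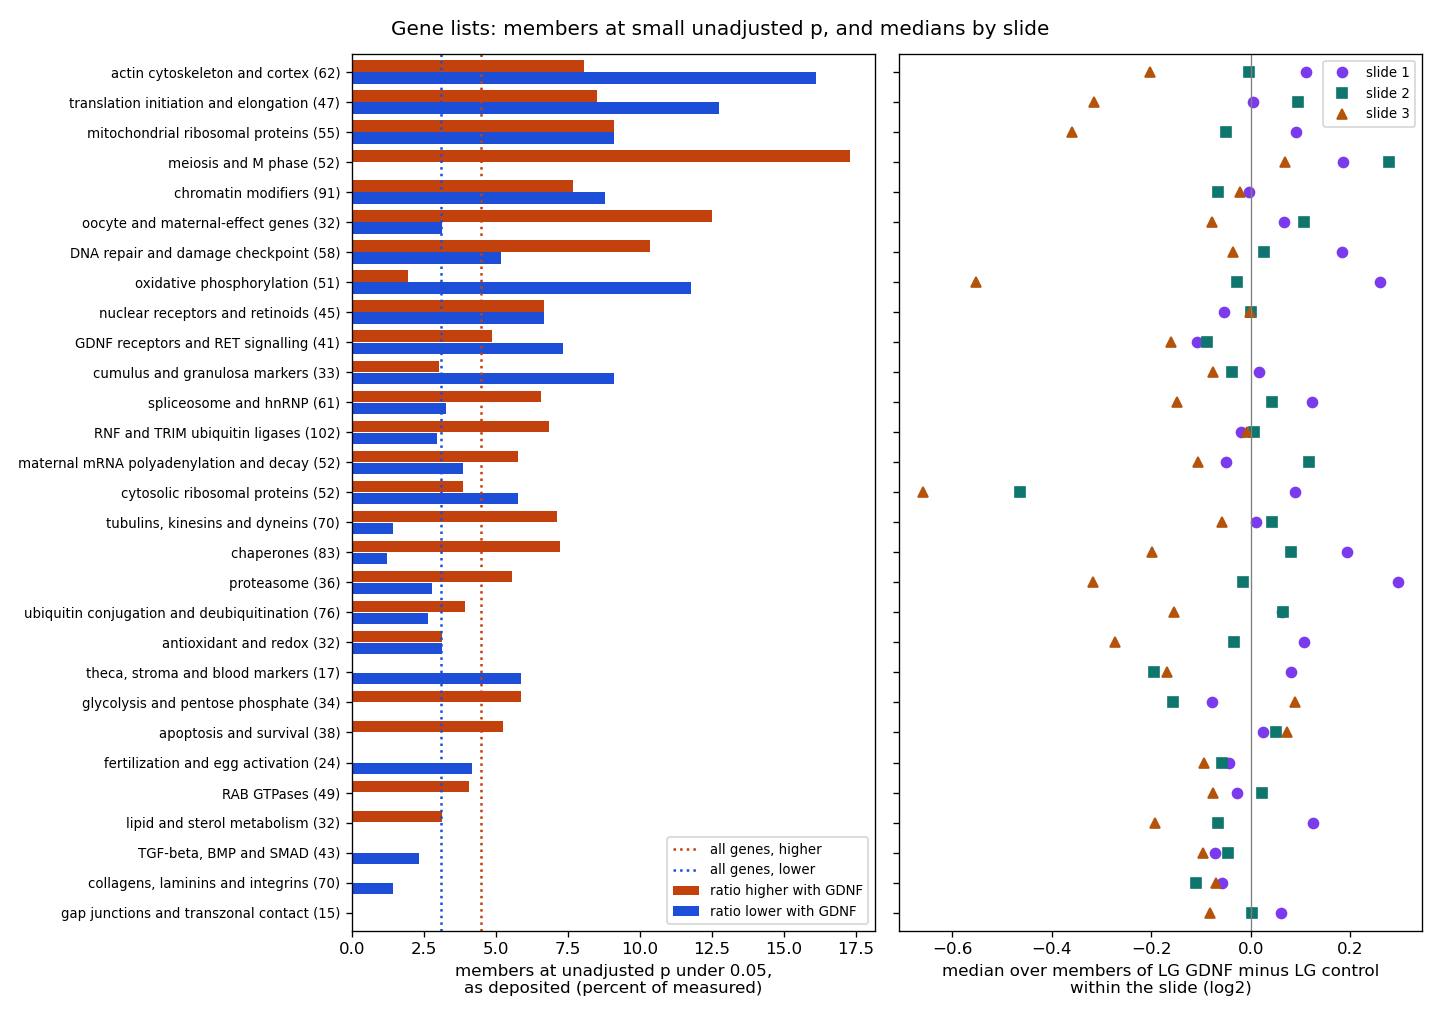
Percent of measured members of 29 gene lists at an unadjusted p under 0.05 as deposited, by side (left, bars, with dotted lines for all genes), and the median difference of LG GDNF minus LG control on each slide (right, log2). The list sizes stand in parentheses. The actin list reaches 24.2% in all, the 9 meiosis genes lie on the higher side alone, and slide 3 has the lowest median in the cytosolic ribosomal, oxidative phosphorylation and translation lists.

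The other lists ranged from 16.5% to 0% around the background of 7.57%. Chromatin modifiers had 15 of 91 members (16.5%), 7 higher and 8 lower. The acetyltransferase KAT2A had -0.110, -0.032 and -0.146 in LG GDNF, against -0.661, -0.799 and -0.499 in LG control, a narrow spread in both groups and a difference of 0.56. DNA repair genes had 9 of 58 (15.5%), 6 higher and 3 lower, with the clamp loader subunit RFC4 at differences of 0.99, 1.19 and 1.02 and PARP1 at -0.18, -0.58 and -0.96. With slides 2 and 3 alone the shares were 12.1% for chromatin modifiers and 8.62% for DNA repair genes, against 5.13% of all genes. With slide 1 turned they were 6.59% (4 higher, 2 lower) and 1.72% (0 higher, 1 lower), against 4.79%. At the low end, collagens, laminins and integrins had 1 of 70 members (1.43%), COL23A1, and TGF-beta, BMP and SMAD genes had 1 of 43 (2.33%), BMP4, which had a ratio of 4.08 on LG control 2 and at most 0.344 on the other LG arrays. With slide 1 turned collagens, laminins and integrins had 7.14% and TGF-beta, BMP and SMAD genes 4.65%, against 4.79% of all genes. Gap junction and contact genes had 0 of 15 in limma as deposited, 1 (6.67%) with slides 2 and 3 alone and 2 (13.3%) in the opposite reading. The antiapoptotic BCL2L10, an abundant oocyte member of the BCL2 family, had a difference of 0.90, with -0.150, 0.525 and 0.343 in LG GDNF, against -1.23, -0.511 and -0.245 in LG control.

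Between these ends lay 14 lists with 3.12% (lipid and sterol metabolism) to 13.3% (nuclear receptors and retinoids) of members at such a p. Among spliceosome genes SNRPA1, a protein of the U2 particle, had -0.116, 1.32 and 0.216 in LG GDNF, against -1.07, -1.29 and -0.0954 in LG control, with GDNF above control on each slide. The spindle motor KIFC1 had differences of 0.58, 0.54 and 1.67. The redox protein TXN, thioredoxin, and TXNIP, which binds and inhibits it, lay on different sides: TXN had differences of 0.78, 0.91 and 1.00 and TXNIP of -0.44, -0.39 and -3.38, the last with a ratio of 2.24 on LG control 2. PDIA3, a disulfide isomerase like PDIA5, lay across from it, with -0.393, -0.247 and -0.464 in LG GDNF, against 0.274, 1.82 and 0.337 in LG control. In PDIA3 the groups were apart.

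Of 33 cumulus and granulosa genes 4 (12.1%, against 7.57% of all genes) had an unadjusted p under 0.05 as deposited, 1 with a higher and 3 with a lower ratio. With slides 2 and 3 alone 1 did so (3.03%, against 5.13%), and with slide 1 turned 0 of 33 in limma, against 4.79%. NR5A2, an orphan receptor of granulosa cells, had -0.107, -0.151 and -1.09 in LG GDNF, against 0.507, 0.684 and 0.340 in LG control, and KITLG, which signals from granulosa cells to the oocyte, had 0.218, 0.624 and 0.375 in LG GDNF, against -0.306, -0.648 and 0.0893 in LG control. These 2 genes had the smallest p of the 4 and lie on different sides, and both had groups that did not overlap. KITLG is the mean of 2 features, with differences of 1.463 and -0.076. Among 17 genes of theca, stroma and blood 1 (5.88%) had such a p, PDGFRB, whose difference was -0.69 as deposited and 0.038 in the opposite reading. How much RNA of other cells the pools held was not tested.

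Whether the difference was particular to LG was tested against the same difference in SM oocytes. Limma called 0 of 11913 genes in this interaction, with 499 (4.19%) at an unadjusted p under 0.05. This count was 325 without LG GDNF 2 and 788 without SM GDNF 2. The 5 smallest p belonged to GRB2, ENC1, SRL, PID1 and FRRS1. GRB2 had a difference of -1.26 in LG and 0.41 in SM, an interaction of size 1.67 (limma adjusted p = 0.635). With slide 1 turned the size was 0.96 (limma unadjusted p = 0.14). PID1, an adaptor that binds lipoprotein receptors, had -0.426, -0.830 and -0.105 in LG GDNF, against 0.276, 0.0482 and 0.117 in LG control, and differences of -0.60 in LG and 0.42 in SM. FRRS1, a ferric reductase-like protein, had -0.41 in LG and 0.66 in SM. SRL, a calcium-binding protein, had 0.25 in LG and -0.79 in SM, the larger size in SM. Of the 25 genes of smallest p in LG, 24 had an interaction p under 0.05 unadjusted, which the choice by p in LG favours, and their sizes in SM were 0.0061 to 0.41. The adjusted p of the interaction was 0.991 for all but GRB2 among the 5 genes, so no gene was shown to respond in LG alone.

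Most named genes rest on 1 feature. Of 168 named genes 55 had more than 1 feature, and in 50 of these all features lay on 1 side as deposited, the exceptions being MKNK2, KITLG, ITPR1, BMPR1B and RABGGTB. Most of these genes were chosen by p of the mean of the same features, which favours 1 side. The same count over all genes was not made. Some features were near 0, as in DLAT, whose 2 features had sizes of 0.004 and 0.771. In a fit of all 45220 features 3401 (7.52%) had an unadjusted p under 0.05 and 0 were called. Features without a symbol gave 7.37%, close to the 7.75% of those with one.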

How the data were processed

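Amplified RNA of pooled oocytes was labelled by the Universal Linkage System and hybridised with a common reference to 2-colour arrays, per the labels' protocols. The authors deposited log ratios for 45220 features, used here as log2 values. No source used here states their log base, their normalization or which channel was divided by which. The array medians lay between -0.0106 and 0.0215 and the median size was 0.267 on every array, so the values were centred and scaled before deposit. Spot intensities and background were not used here.

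GEO's platform annotation names 1 gene for 18121 features, 0 features have several names and 27099 have none. Names were brought up to date by RefSeq accession (124 changed, 2534 not), by current symbol (15218) or by synonym (241), and 4 stayed as they were. Averaging the features of each symbol left 11913 genes, and 3326 of these rest on several features.

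Limma 3.58.1 (R 4.3.3) fitted the 4 groups and the slide to all 12 arrays, with 6 residual degrees of freedom and Benjamini-Hochberg adjustment over all genes, two-sided. Each slide holds 1 array of every group, so a difference is the mean of the 3 within-slide differences, and every p rests on the spread between pools. Python 3.11.15 and pandas 2.3.3 made the tables. On simulated ratios with 200 of 11913 genes changed, the fit of GDNF against control in LG called 49% of changes of size 1 and 87% of size 2. It made 8 false calls. The simulated noise was normal and independent between arrays, with no outlying array and the same side of change on every slide. These shares therefore do not give the power on the deposited ratios.

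The comparison and the 29 gene lists were chosen with earlier results of these data known. Named genes are the 25 of smallest p as deposited, the 12 of smallest larger p over both readings, the 12 on slides 2 and 3, the 10 in the opposite reading, the 5 of smallest interaction p, the 2 of smallest p in each list, and GDNF, GFRA1, RET and NCAM1, without LOC placeholders for the first 4 groups. The genes of size 1 or more on every slide and the further list members named were added after their values were seen. Alternatives covered the dye reading, the slides and arrays used, the block, array weights, normalization, moderation, the summary of features and filters. Pool numbers do not pair the LG arrays: the deviations from the group means of same-numbered pools correlated at 0.240, -0.105 and -0.450 across genes. Array titles mark LG GDNF 1 and 2 as Clean, a word that is not explained and was not used.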

Additional observations from a re-analysis of the deposited data

Results flagged for a closer look

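In 13 named genes the difference between GDNF and control lay on 1 side on all 3 slides in LG and on the other side on all 3 slides in SM, as deposited. Over all genes 292 (2.45%) showed this, and limma called 0 of them. An unadjusted interaction p under 0.05 was found in 152, which the choice by opposite sides favours. The 168 named genes were chosen in part by p in LG and in the interaction. Their share of 7.74% is therefore not comparable with the 2.45%. GRB2 had an interaction of size 1.67 (limma adjusted p = 0.635). The adjusted p of the other 12 was 0.991 in limma. Among signalling genes NCAM1 had an interaction of 1.45, PID1 of 1.02 and ITPR1, a calcium channel of the endoplasmic reticulum, of 0.363. Among genes of structure and membranes ENC1 had 1.37, SRL 1.04, FRRS1 1.07, PDIA3 1.56 and PLIN2, a coat protein of lipid droplets, 0.586. Among regulators of mRNA and transcription UPF3B had 1.05, EIF4G3 1.45, EIF1 0.584 and NR5A2 1.30. These sizes, and the sides, are as deposited. With slide 1 turned the interaction was 0.96 for GRB2, 1.10 for NCAM1, 0.69 for NR5A2, 0.67 for EIF4G3 and 0.54 for PDIA3. In that reading it was 0.30 for PID1, 0.23 for PLIN2, 0.22 for FRRS1, 0.20 for UPF3B, 0.17 for ENC1, 0.16 for SRL, 0.052 for EIF1 and 0.046 for ITPR1, and the smallest unadjusted p of the 13 in limma was 0.14. All are sizes of the difference between classes and carry no direction of expression.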

How the results depend on the processing

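No gene was called under any alternative run, in LG or in the interaction, and the smallest adjusted p in LG was 0.0612 with array weights. The count at an unadjusted p under 0.05 in LG, 902 in the fit reported, was 571 in the opposite dye reading, 360 in that reading without both LG arrays of slide 3, 2044 with array weights, and 476 (without LG GDNF 2) to 1089 (without SM GDNF 3) with single arrays left out. With 1 array of a group left out, the fit assumes that the remaining arrays vary like those of other groups. In the interaction the count of 499 was 945 on slides 1 and 2 alone, 891 with array weights and 325 to 788 with single arrays left out. With the replicate block, the pool number in place of the slide, the counts were 954 and 549, and 8 of 12 arrays were closest to one of their own number, as 8 of 12 were to one of their own slide. The opposite reading without the LG arrays of slide 3 and the fits without those arrays or on all features were added after the data were seen.

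Of 168 named genes, 168 kept their side on slides 2 and 3 alone and 160 in the opposite reading. Most of them were chosen by p in fits that include slides 2 and 3, which favours a kept side. Below, a minus sign marks a size on the side opposite to that as deposited. In the opposite reading PDGFRB had -0.0385, ITPR1 -0.0202, SLC16A7 -0.0140, COL23A1 -0.0131, SHC1 -0.0745, ACTN4 -0.272, CAP1 -0.248 and MRPS2 -0.0926. On slides 1 and 2 alone, and likewise without both LG arrays of slide 3, AGO2 had -0.102, GMIP -0.0438, MKNK2 -0.519, HADHA -0.116, ASNS -0.154, RET -0.295 and ACOT9 -0.108. On slides 1 and 3 alone AGO2 had -0.0857, GMIP -0.136, MKNK2 -0.115, HADHA -0.0473, RET -0.0417 and ACOT9 -0.0481. With quantile normalization MKNK2 had -0.0157, ASNS -0.0834 and RET -0.0041, with array weights RET had -0.0068, and without features above 4 BMPR1B had -0.0714. With single arrays left out the sizes were -0.0661 to 0.474 for AGO2, -0.0416 to 0.476 for GMIP, -0.375 to 0.549 for MKNK2, -0.135 to 0.695 for HADHA, -0.393 to 1.66 for ASNS, -0.212 to 0.269 for RET, -0.108 to 1.21 for ACOT9, -0.0042 to 1.04 for NDUFA7 and -0.0236 to 1.92 for RGS5. The cause of these changes was not tested. Groups of 3 arrays, an unsettled dye orientation and ratios without spot intensities limit what can be shown here.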
